A study of Mus musculus with 3 samples.

Results

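The 10 genes described here carry peptides to the cell surface on MHC class I. They are the heavy chains H2-K1 and H2-D1, their light chain B2m, the transporter pair Tap1 and Tap2, the loading chaperone Tapbp, the immunoproteasome subunits Psmb8, Psmb9 and Psmb10, and the transactivator Nlrc5. They were picked by gene symbol from the 28692 gene rows of the count matrices, and each of the 10 was found. They were measured by single-cell RNA sequencing (10x Genomics, 3′ tags) in crypts of the small intestine of adult C57BL/6 mice 2 to 3 months old, with 1 library per genotype.

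All 3 genotypes carried Olfm4-IRES-eGFPCreERT2, a tamoxifen-dependent Cre under Olfm4, a gene of crypt base stem cells. The rescue library came from CDC42flox/flox; Yapflox/flox; Tazflox/+ mice, the KO library from CDC42flox/flox mice, and the control library from CDC42+/flox mice, which the labels call Het. The control is therefore a carrier of a floxed Cdc42 allele and of the Cre, not a wild type. Cre from Olfm4 is directed at stem cells and their progeny, so T cells and other immune cells of the same crypts are not its target. The comparisons ask how the class I genes stood after loss of CDC42, a small GTPase of cell polarity, and with Yap alleles and 1 Taz allele, genes of the coactivators Yap and Taz, floxed as well. The labels do not say how many mice stand behind a library. With 1 library per genotype no difference was tested, and each value describes these libraries only.

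The libraries held 3449, 4786 and 6152 barcodes in rescue, KO and control, and 64355665, 85525811 and 58433966 unique molecular identifiers (UMIs, each standing for 1 captured RNA molecule). The median mitochondrial share of UMIs, a sign of cell damage, was 14.2%, 22.7% and 52.3%, and its part in the results was tried only through stricter and looser cell limits. After limits on genes, UMIs and mitochondrial share and removal of doublets, 1868 rescue cells, 2003 KO cells and 1575 control cells stayed, of which 1007, 1638 and 615 were epithelial and 768, 206 and 931 T cell-like. Median depth was 39587, 38757 and 30031 UMIs in epithelial cells, and 5022.5, 4606 and 5183 in T cell-like cells. Rescue and KO shared 6 deposited barcodes, KO and control 11, and rescue and control 3, of which 1, 2 and 0 passed the limits. Cdc42, the targeted gene, stood at 391, 386 and 246 CPM (a gene's UMIs scaled to the same total in every sum of cells) in rescue, KO and control epithelium, so it was not lower in KO. A 3′ tag outside the deleted exon checks nothing, and rescue, KO and control below mean the libraries labelled so. Yap1 stood at 20.5, 24.7 and 26.3 CPM, and Wwtr1, the gene of Taz, at 2.92, 13.4 and 7.35 CPM.

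As background, proteasomes cut cytosolic proteins into peptides, and the immunoproteasome subunits replace the constitutive catalytic subunits Psmb5, Psmb6 and Psmb7 in cells that have met interferon. TAP pumps the peptides into the endoplasmic reticulum, where tapasin helps load them onto a heavy chain paired with beta-2 microglobulin. NLRC5 drives transcription of class I heavy chain genes and of some of their partner genes, not of every member, through a conserved promoter module. In gut epithelium the loaded complex is what CD8 T cells, including those between the epithelial cells, can read.

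The members lie close together. By the GENCODE vM21 annotation (GRCm38), matched by gene ID, 7 of the 10 lie within 1351.6 kb of chromosome 17, between Tapbp at 33915899 and the end of H2-D1 at 35267499. Psmb9, Tap1, Psmb8 and Tap2 fill 34.3 kb of it, and the Psmb9 gene, which ends at 34187764 on the minus strand, overlaps the start of Tap1 at 34187553 on the plus strand. The labels do not say whether counting used strand, so reads from that overlap cannot be assigned with certainty. The overlap lies at the 5′ end of both genes, however, while the libraries hold 3′ tags. B2m lies on chromosome 2, and Nlrc5 and Psmb10 on chromosome 8. The promoters of the 2 heavy chains, of B2m and of the head-to-head pair Tap1 and Psmb9 are printed because these genes split into groups in the values that follow. Each runs from 250 bases before to 50 bases after the RefSeq start site (GRCm38.p6), 5′ to 3′ on the gene's own strand, and 8 of the 10 members had such a window, Tap2 and Nlrc5 being the others. Capitals mark GGGATTCCC (an NF-kB site), GAANNGAAA and GAAANNGAA (2 forms of the interferon-stimulated response element, where N is any base), and TGACG (the core of the X2 box). Each was searched on both strands, so a match may stand in the printed strand as its reverse complement, as CGTCA does for TGACG.
H2-K1, chr17:34000298-34000597, minus strand: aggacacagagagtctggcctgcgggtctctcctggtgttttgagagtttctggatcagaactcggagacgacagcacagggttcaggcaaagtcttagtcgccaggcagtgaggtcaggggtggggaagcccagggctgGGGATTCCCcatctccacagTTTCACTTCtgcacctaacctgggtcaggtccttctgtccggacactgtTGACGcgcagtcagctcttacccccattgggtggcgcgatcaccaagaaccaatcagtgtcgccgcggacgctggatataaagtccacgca
H2-D1, chr17:35262844-35263143, plus strand: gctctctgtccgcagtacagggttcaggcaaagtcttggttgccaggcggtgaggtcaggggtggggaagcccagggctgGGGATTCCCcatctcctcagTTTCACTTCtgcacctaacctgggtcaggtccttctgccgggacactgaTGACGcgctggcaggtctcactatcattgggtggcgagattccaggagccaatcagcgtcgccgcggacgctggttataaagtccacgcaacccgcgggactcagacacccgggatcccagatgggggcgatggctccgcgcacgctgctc
B2m, chr2:122147437-122147736, plus strand: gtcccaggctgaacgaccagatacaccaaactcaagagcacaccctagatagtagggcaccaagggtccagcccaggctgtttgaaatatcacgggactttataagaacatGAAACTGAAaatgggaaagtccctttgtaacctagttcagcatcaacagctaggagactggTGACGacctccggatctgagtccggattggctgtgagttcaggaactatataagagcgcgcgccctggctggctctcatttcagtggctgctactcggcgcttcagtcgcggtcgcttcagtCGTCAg
Tap1, chr17:34187306-34187605, plus strand: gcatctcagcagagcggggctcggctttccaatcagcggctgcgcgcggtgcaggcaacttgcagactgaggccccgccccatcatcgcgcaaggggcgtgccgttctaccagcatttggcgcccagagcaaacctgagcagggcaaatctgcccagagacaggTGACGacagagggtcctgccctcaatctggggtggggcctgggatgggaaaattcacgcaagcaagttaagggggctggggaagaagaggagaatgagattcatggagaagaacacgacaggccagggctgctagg
Psmb9, chr17:34187281-34187580, minus strand: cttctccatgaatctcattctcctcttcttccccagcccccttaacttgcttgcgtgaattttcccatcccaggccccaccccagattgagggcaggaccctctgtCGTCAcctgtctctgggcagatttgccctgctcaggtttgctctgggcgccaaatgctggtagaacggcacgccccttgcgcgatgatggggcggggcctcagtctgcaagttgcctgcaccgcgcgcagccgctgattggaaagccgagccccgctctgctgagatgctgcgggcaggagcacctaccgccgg

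GGGATTCCC and GAANNGAAA stood close together in the windows of H2-K1 and H2-D1, 2 of the 8 members searched, and in no other member's. Of all 32851 windows 0.353% held the first and 7.52% the second. The H2-K1 and H2-D1 windows were alike over 228 aligned bases, with 206 identical (90.4%), so their shared matches are not independent. B2m had GAAANNGAA, found in 8.56% of windows, and Psmb8, not printed, had TTCNNNGAA, a gamma-activated site, found in 8.30%. TGACG was in 5 of 8 members' windows, the 5 printed, against 20.8% of all windows. CCAAT, the Y box, was in 6 of 8, against 37.4%. The Tap1 and Psmb9 windows share 275 bases on opposite strands, with start sites 226 bases apart, so a match in the shared stretch counts for both. A match is a description of letters in the window, and the motifs were chosen with these promoters in view.

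In epithelium the 3 immunoproteasome subunits and the heavy chains did not move together. Psmb8, the LMP7 subunit, had 336 CPM in rescue epithelium (95% Poisson interval 331 to 342), 33.6 CPM in KO epithelium (32.2 to 35.1) and 118 CPM in control epithelium (114 to 123). That is 9.99-fold higher in rescue than KO (9.54 to 10.5), 3.52-fold lower in KO than control (3.31 to 3.73), and 2.84-fold higher in rescue than control (2.72 to 2.97). Psmb9, the LMP2 subunit, had 158 CPM in rescue epithelium, 18.0 CPM in KO epithelium and 73.8 CPM in control epithelium. It was 8.80-fold higher in rescue than KO (8.25 to 9.38), 4.11-fold lower in KO than control (3.80 to 4.45) and 2.14-fold higher in rescue than control (2.02 to 2.27). For both genes the order was rescue, control, KO, with no overlap of intervals. Separate intervals were not particular to them, since those of H2-K1, H2-D1, Psmb5, Psmb6 and Psmb7 did not overlap between the libraries either. The share of all genes with separate intervals was not counted. These intervals, like all below, cover counting error only and say nothing of the spread between mice. Under stricter cell limits, which left 175 control epithelial cells, the log2 ratio of KO over control shrank to -0.51 for Psmb8 and -0.54 for Psmb9. With equal weight per epithelial type, rescue over control was 0.70 on the log2 scale for Psmb9, within 2-fold.

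Psmb10, the MECL-1 subunit, differed less. It had 303 CPM in rescue epithelium, 149 CPM in KO epithelium and 167 CPM in control epithelium, 2.04-fold higher in rescue than KO (1.98 to 2.09). That ratio fell within 2-fold, down to 0.71 on the log2 scale, under stricter limits, median-of-ratios scaling and equal weight per epithelial type. Its ratio of KO over control was 0.892 (0.857 to 0.928), a direction that turned under stricter limits, looser limits and median-of-ratios scaling. Unlike Psmb8 and Psmb9, Psmb10 lies outside the chromosome 17 cluster.

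**Figure D1:**
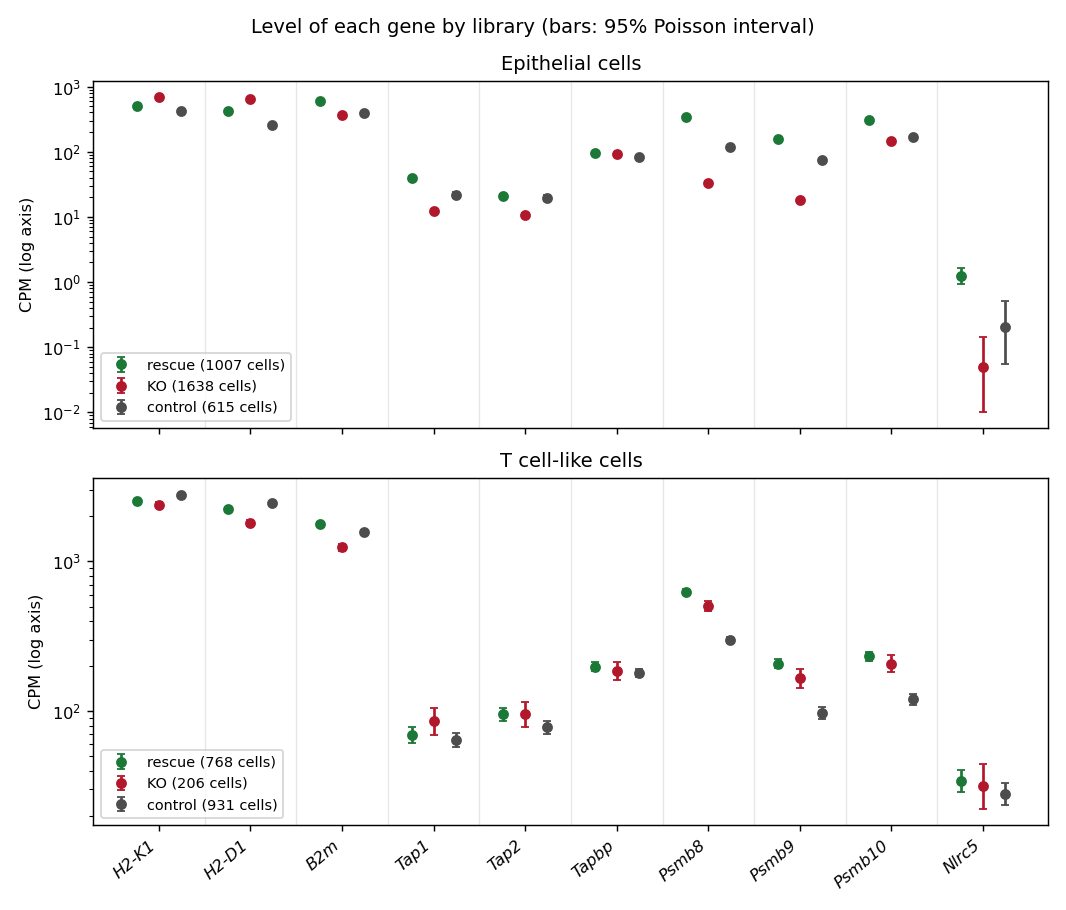
Level of each of the 10 genes in CPM (log axis) in epithelial cells (top) and T cell-like cells (bottom), for rescue, KO and control from left to right within each gene; points are library sums and bars 95% Poisson intervals. In epithelium Psmb8 and Psmb9 are lowest in KO, at 33.6 and 18.0 CPM, while H2-K1 and H2-D1 are highest there, at 690 and 655 CPM.

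Over all epithelial cells the heavy chains ran the other way, but not within every type. H2-K1 had 506 CPM in rescue epithelium, 690 CPM in KO epithelium and 420 CPM in control epithelium, and H2-D1 had 420, 655 and 259 CPM in rescue, KO and control. H2-D1 was 2.52-fold higher in KO than control (2.45 to 2.6) and H2-K1 1.64-fold higher (1.6 to 1.68). Rescue over KO was 0.642 for H2-D1 (0.630 to 0.653) and 0.734 for H2-K1 (0.722 to 0.746). The H2-K1 ratio of rescue over KO was close to even, at a log2 value of 0.06, when each epithelial type was given equal weight. Within types, H2-K1 was higher in rescue than KO in TA-like (1.49), enterocyte-like (1.09) and enteroendocrine-like cells (1.58) and lower in goblet-like cells (0.684). H2-D1 was higher in rescue than KO in TA-like cells (1.12) and lower in enterocyte-like (0.845) and goblet-like cells (0.564), and in enteroendocrine-like cells its interval spanned 1 (0.875 to 1.35). KO over control stayed above 1 for H2-D1 in these 4 types (1.34 to 2.31), while for H2-K1 it was 0.792 in enteroendocrine-like cells. In KO over control H2-D1 came within 2-fold, at a log2 ratio of 0.87, with equal weight per epithelial type. H2-K1 and H2-D1 are similar paralogs, related to the H2-Q and H2-T genes. The labels do not say how shared reads were assigned, so the split between H2-K1 and H2-D1 is uncertain. The ratio of their summed UMIs to those of B2m, read only between libraries, was 1.57 in rescue epithelium, 3.68 in KO epithelium and 1.72 in control epithelium.

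B2m itself, the invariant light chain, had 590 CPM in rescue epithelium, 365 CPM in KO epithelium and 395 CPM in control epithelium. It was 1.62-fold higher in rescue than KO (1.59 to 1.64). KO over control was 0.925 (0.902 to 0.949), and the sign of this small difference changed under stricter limits, looser limits and median-of-ratios scaling.

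Of the loading genes, Tap1 had the order rescue, control, KO over all epithelial cells. It had 38.9 CPM in rescue epithelium, 12.3 CPM in KO epithelium and 21.8 CPM in control epithelium. Rescue over KO was 3.17 (2.91 to 3.46) and KO over control 0.564 (0.5 to 0.636), and the second had the other sign, at a log2 ratio of 0.85, under stricter cell limits. Tap2 had 20.9 CPM in rescue epithelium, 10.8 CPM in KO epithelium and 19.7 CPM in control epithelium, so that rescue and control were alike within counting error (ratio 1.06, 0.939 to 1.19) and KO was lower than both. Tapbp, the tapasin gene at the end of the cluster, had 95.9, 93.4 and 82.4 CPM in rescue, KO and control, the narrowest spread of the 10.

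Nlrc5 was near the limit of detection in epithelium. It had 54 UMIs in rescue epithelium, 3 in KO epithelium and 4 in control epithelium, or 1.25, 0.049 and 0.201 CPM. Rescue over KO was 25.5 with a counting interval of 8.27 to 128, and KO over control was 0.243 with an interval of 0.0356 to 1.44, which spans 1. At least 1 Nlrc5 UMI was in 4.87% of rescue epithelial cells, 0.183% of KO epithelial cells and 0.650% of control epithelial cells. In T cell-like cells Nlrc5 stood at 34.3, 31.7 and 27.9 CPM in rescue, KO and control, with overlapping intervals. Ciita, which does the same for class II and was chosen after its values were seen, had 202 UMIs in rescue epithelium, 1 in KO epithelium and 8 in control epithelium.

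Set against all genes, 9 of the 10 members reached 10 CPM in 1 of the libraries compared, Nlrc5 being the exception, and were read at a 2-fold limit on the log2 scale (log2 of CPM plus 1). Of those 9, 4 were past 2-fold higher in rescue than KO epithelium (Tap1, Psmb8, Psmb9 and Psmb10) and 0 lower, where 13% of all genes were higher and 9.33% lower. The members' median log2 ratio was 0.96, and that of all 7758 genes 0.19. For KO over control, H2-D1 was higher and Psmb8 and Psmb9 were lower, where 10.8% of all genes were higher and 13.6% lower, and the medians were -0.16 over the members and -0.10 over all genes. The median over the members hides the 2 directions within them, and its sign changed with the cell limits and the scaling. For rescue over control, Psmb8 and Psmb9 were higher and none lower, where 2.21% of all genes were higher and 4.95% lower, with medians of 0.75 and 0.10.

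Markers of other cells were measured beside these values. In epithelial cells the 7 pan-immune markers summed to 11.8 CPM in rescue, 2.12 CPM in KO and 7.45 CPM in control, against 5810, 5363 and 4910 CPM in T cell-like cells, and none of the 7 was at 0. At that share, RNA of T cells would bring 1.27 CPM of Psmb8 and 5.13 CPM of H2-K1 to rescue epithelium. The estimate is for the pooled cells, not for each cluster, and Ptprc, 1 of the 7 markers, was itself used to call clusters epithelial. The part of stray immune RNA in the values was not tested. Paneth cell markers took 14163, 880 and 84170 CPM of the epithelial UMIs in rescue, KO and control. Enterocyte markers took 17167, 60648 and 24017 CPM, so the epithelial mixtures differed. In control, 48 Paneth-like cells gave 4197344 of the 19854272 epithelial UMIs, and KO had 0 such cells. Those control cells had 92.9 CPM of H2-D1, 204 CPM of H2-K1, 17.4 CPM of Psmb8 and 40.3 CPM of Psmb5, each below the pooled control level. The part of these mixtures in the pooled values was not tested beyond the comparisons by type that follow. Those comparisons leave out the unnamed epithelial clusters. Of these, cluster 10 held 199 rescue cells, 0 KO cells and 5 control cells, and cluster 18 held 114, 0 and 10. Their rescue cells gave 11577556 and 7200305 of the 43205013 epithelial UMIs of rescue. Unnamed cluster 14 held 156 KO cells and cluster 19 held 95, with 444774 and 709903 of the 61218758 epithelial UMIs of KO. A sum over cells of a type is a mean, and fewer expressing cells cannot be told apart in it from less RNA per cell.

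Counts per cell bear on that. When each epithelial cell was thinned to 10000 UMIs, leaving 682 rescue cells, 1206 KO cells and 443 control cells, at least 1 UMI of Psmb8 or Psmb9 was in 95.7% of rescue cells (exact binomial 95% interval 94 to 97.1), 35.7% of KO cells (32.9 to 38.4) and 69.5% of control cells (65 to 73.8). Shallower cells were left out, 325 in rescue, 432 in KO and 172 in control, and without thinning the shares were 95%, 58.4% and 73.8%. The median cell had 5 such UMIs in rescue, 0 in KO and 1 in control. H2-K1 UMIs were in 98.4%, 96.8% and 92.8% of the same cells. Ptprc, an immune gene that epithelium lacks, was in 1.32%, 0.249% and 1.81% of them. The shift in Psmb8 and Psmb9 ran through most cells of rescue, since 4.25% of them had no UMI of either gene, against 64.3% of KO cells and 30.5% of control cells.

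**Figure D2:**
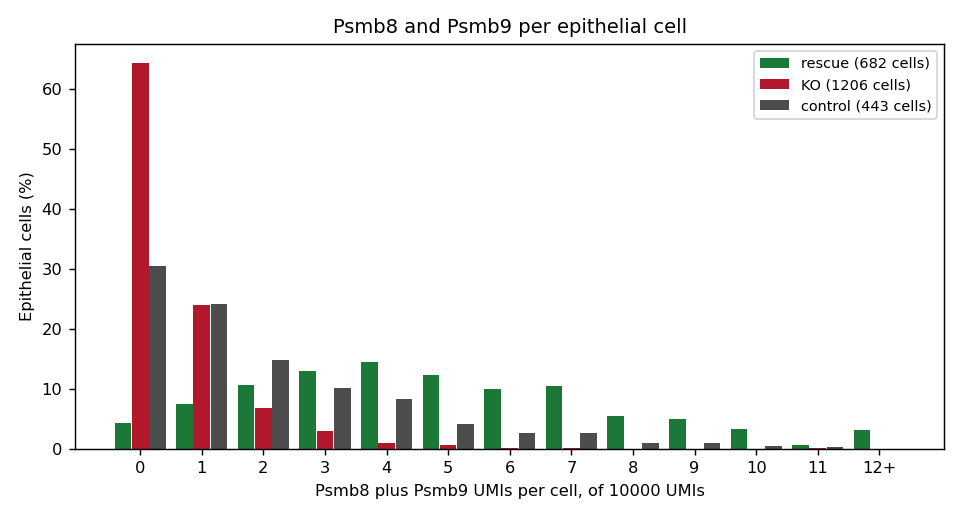
Share of epithelial cells (%) by their number of Psmb8 plus Psmb9 UMIs after each cell was thinned to 10000 UMIs, with rescue, KO and control bars from left to right; the last class holds 12 or more UMIs. No UMI was found in 4.25% of rescue cells, 64.3% of KO cells and 30.5% of control cells.

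TA-like cells, the dividing progeny of the stem cells, had the widest gap in Psmb8 but not in Psmb9, whose ratio of rescue over KO was wider in clusters 17 (14.5) and 20 (27.6). KO cells under this name sat mostly in cluster 4 and rescue and control cells mostly in cluster 7, and the clusters are unlike. Cluster 7 was led by cell division genes (Nusap1, Ube2c, Aurkb, Cdk1 and Top2a), and cluster 4 by Anxa1, Phlda2, Acot1 and Clu, with no TA marker among its leading genes, so the KO values below set unlike cells against each other. The type held 210 rescue cells, 311 KO cells and 36 control cells. Psmb8 had 334 CPM in rescue TA-like cells, 11.6 CPM in KO TA-like cells and 95 CPM in control TA-like cells. It was 28.7-fold higher in rescue than KO (24.9 to 33.4) and 8.18-fold lower in KO than control (6.55 to 10.2). Psmb9 had 174, 15.2 and 108 CPM in the same order, 11.4-fold higher in rescue than KO and 7.07-fold lower in KO than control. B2m had 456, 159 and 326 CPM and Tap1 34.7, 7.14 and 24.4 CPM. The heavy chains did not share the gap, with 399, 267 and 239 CPM for H2-K1 and 345, 307 and 184 CPM for H2-D1. Nlrc5 had 24 UMIs in rescue TA-like cells and 0 in KO and control TA-like cells, where the upper limit was 0.223 CPM in KO and 2.37 CPM in control. In this type 7 of 9 members were past 2-fold higher in rescue than KO and 0 lower, where 4.58% of all genes were higher and 7.59% lower. In KO against control 0 of 9 were higher and 5 lower (B2m, Tap1, Tap2, Psmb8 and Psmb9), where 6.85% of all genes were higher and 7.84% lower. For rescue over control Psmb8 was higher and 0 lower, where 1.69% and 2.78% of all genes were.

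Enterocyte-like cells came from separate clusters in the libraries, so their values are given by cluster. In KO they were clusters 2 and 3, with 436 and 410 cells, where Psmb8 had 30.9 and 47.6 CPM and H2-K1 617 and 1105 CPM. Rescue and control met in clusters 11 and 5. Cluster 11 held 72 rescue cells and 110 control cells, where Psmb8 had 382 and 254 CPM (ratio 1.5, 1.39 to 1.62), Psmb9 115 and 135 CPM (0.857, 0.755 to 0.972), and H2-D1 820 and 426 CPM (1.93, 1.82 to 2.04). Cluster 5 held 276 rescue cells of low depth, with a median of 2721 UMIs over its cells and Ubd, Zbp1 and Isg15 among its leading genes. It also held 22 control cells. Psmb8 was 886 CPM in its rescue cells and 632 CPM in its control cells (1.4, 1.01 to 2.01). Against cluster 11, the direction was opposite for H2-K1, with 214 CPM in rescue and 512 CPM in control (0.417, 0.283 to 0.634), and for B2m, with 468 CPM in rescue and 803 CPM in control (0.583, 0.431 to 0.805), where cluster 11 had ratios of 1.5 and 1.77. Psmb10 was 0.661 in cluster 5 (0.481 to 0.931). Pooled, enterocyte-like Psmb8 stood at 493, 38.9 and 258 CPM in rescue, KO and control. For rescue over KO 5 of 9 members were past 2-fold higher (B2m, Tap1, Tap2, Psmb8 and Psmb9) and 0 lower, where 8.08% of all genes were higher and 10.5% lower. In KO against control 0 were higher and 4 lower (Tap1, Tap2, Psmb8 and Psmb9), where 8.73% of all genes were higher and 17.2% lower. For rescue over control 0 of 9 passed 2-fold either way, where 2% of all genes were higher and 10.5% lower. The rescue values of this type rest on which cells carry its name. Under 3 of the alternatives, which gave it to 129, 277 and 279 rescue cells in place of 348, the members' median for rescue over KO changed sign.

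All 3 libraries met in cluster 17 and in cluster 20. Cluster 17, goblet-like, held 30 rescue cells, 27 KO cells and 69 control cells, and its Psmb8 level was 238 CPM in rescue, 16.3 CPM in KO and 55.5 CPM in control. That is 14.6-fold higher in rescue than KO (8.05 to 29.4), with KO over control at 0.295 (0.142 to 0.551). Psmb9 had 190, 5 and 57 UMIs there, and B2m 374, 131 and 250 CPM. H2-K1 was 576, 420 and 440 CPM in cluster 17, so KO and control were alike within counting error (0.955, 0.830 to 1.10). Over all goblet-like cells, most of them KO cells of cluster 12, KO over control was 1.16 for Psmb8 (0.92 to 1.46) and 0.412 for Psmb9 (0.284 to 0.597), so the cluster taken decided the Psmb8 value. In goblet-like cells 3 of 9 members were past 2-fold higher in rescue than KO (Tap1, Psmb8 and Psmb9) and 0 lower, where 29.2% of all genes were higher and 11.1% lower, so that count is near the background. Between KO and control H2-K1 and H2-D1 were higher and Psmb9 lower, where 8.5% of all genes were higher and 30.3% lower. For rescue over control Tap1, Psmb8 and Psmb9 were higher and 0 lower, where 3.63% of all genes were higher and 6.51% lower.

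Cluster 20, enteroendocrine-like, held 21 rescue cells, 25 KO cells and 60 control cells. Psmb9 had 50 UMIs there in rescue, 1 in KO and 39 in control, and KO over control was 0.093 with a counting interval of 0.0023 to 0.549. Psmb8 was 193, 48.6 and 56.4 CPM in cluster 20, with a KO over control interval of 0.456 to 1.53 that spans 1. In this type 4 of 9 members were past 2-fold higher in rescue than KO (B2m, Tap1, Psmb8 and Psmb9) and 0 lower, where 15.6% of all genes were higher and 13% lower. For KO over control 0 of 8 were higher and 2 lower (Tap2 and Psmb9), where 10.9% of all genes were higher and 14.4% lower. For rescue over control Tap1, Psmb8 and Psmb9 were higher and 0 lower, where 9.82% of all genes were higher and 9.81% lower. The calls of Tap1 and Tap2 in this type rest on few counts. Tap1 had 10, 2 and 6 UMIs in rescue, KO and control and Tap2 9, 3 and 25, with overlapping intervals between libraries for each gene.

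ISC-like cells, the stem cells of the crypt base, fell in cluster 13, with 27 rescue cells, 4 KO cells and 137 control cells, so KO was too sparse to read. Psmb8 was 3.29-fold higher in rescue (293 CPM, against 88.9 CPM in control; interval 2.85 to 3.80) and H2-K1 1.78-fold higher (498 CPM, against 279 CPM in control). In ISC-like cells Psmb8 alone of 9 members was past 2-fold higher in rescue than control and 0 lower, where 1.41% of all genes were higher and 6.55% lower. Paneth-like cells, the antimicrobial cells of the crypt base, numbered 13 in rescue, 0 in KO and 48 in control, and the control cells had the lowest Psmb8 of the control types, 17.4 CPM, and 204 CPM of H2-K1. The constitutive subunit Psmb5 was low there too, at 40.3 CPM.

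**Figure D3:**
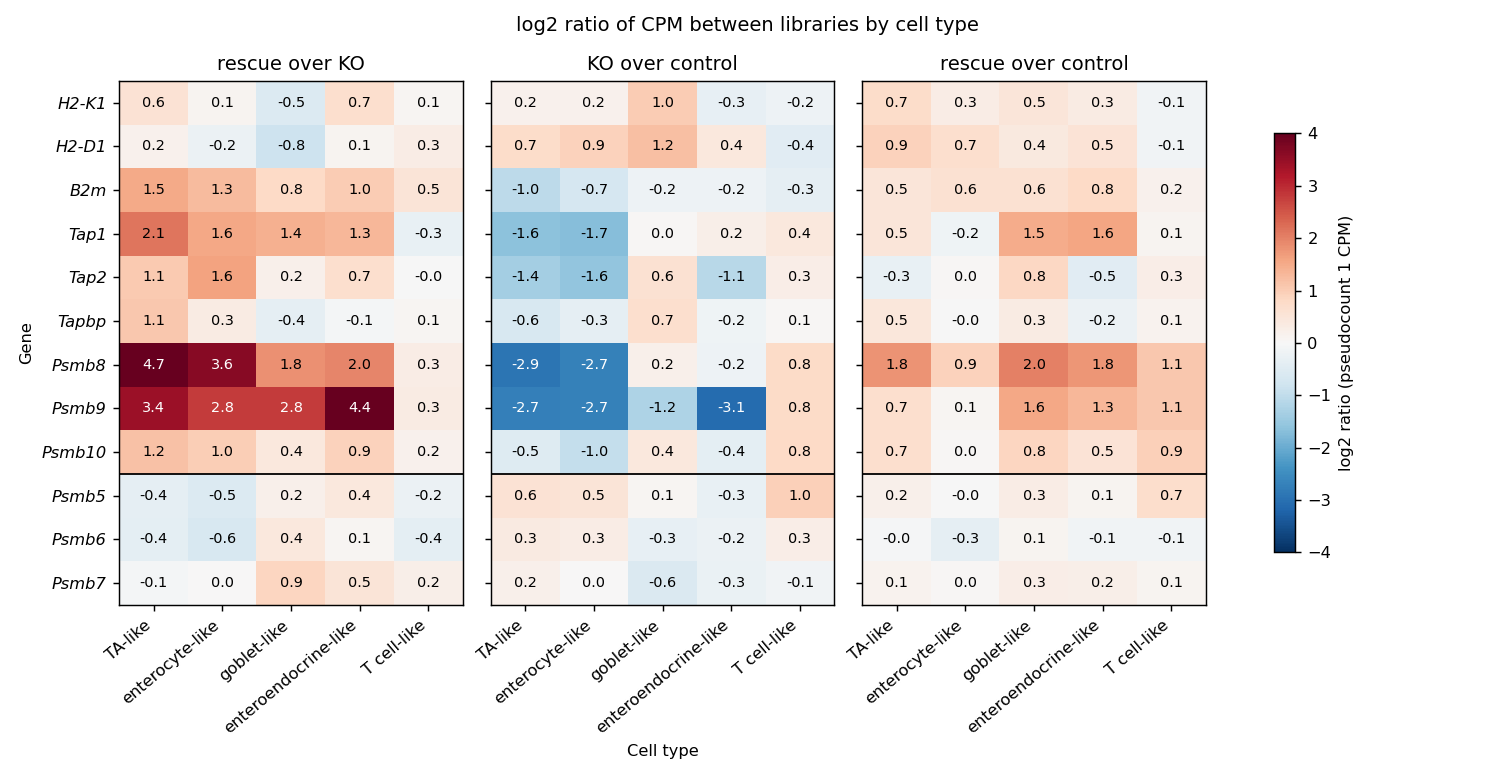
Log2 ratio of CPM (pseudocount 1 CPM) for 9 of the 10 genes and, under the line, the constitutive subunits Psmb5, Psmb6 and Psmb7, by cell type, for rescue over KO, KO over control and rescue over control. Psmb9 is positive in the 4 epithelial types of the first panel and negative in the 4 of the second, while in T cell-like cells no gene shown passes 2-fold in either.

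The constitutive catalytic subunits did not share the drop in KO. Psmb5 had 260 CPM in rescue epithelium, 279 CPM in KO epithelium and 172 CPM in control epithelium, Psmb6 269, 304 and 220 CPM, and Psmb7 140, 110 and 91.1 CPM, and 0 of the 3 passed 2-fold in any of the comparisons in epithelium. UMIs from 3′ tags are not per transcript length, so the ratio of a subunit to its counterpart is read only between libraries. The ratio of Psmb8 to Psmb5 was 1.29 in rescue epithelium, 0.121 in KO epithelium and 0.689 in control epithelium, and that of Psmb9 to Psmb6 0.586, 0.0590 and 0.335. Psmb10 to Psmb7 moved less, at 2.16, 1.35 and 1.83. Summed over the 3 pairs, the ratio was 1.19 in rescue (1.17 to 1.21), 0.289 in KO (0.283 to 0.295) and 0.743 in control (0.721 to 0.766). The summed ratio was 0.986, 0.152 and 0.508 in TA-like cells in rescue, KO and control. It was 2.24, 0.363 and 1.49 in enterocyte-like cells and 0.645, 0.241 and 0.298 in enteroendocrine-like cells. Pooled goblet-like cells went the other way between KO and control, with 0.894 in rescue, 0.518 in KO and 0.395 in control. Within goblet-like cluster 17, which all 3 libraries share, KO lay below control, with 0.834 in rescue, 0.179 in KO and 0.381 in control. KO cells of cluster 12 had 0.661. T cell-like cells had 2.72, 1.91 and 1.58.

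**Figure D4:**
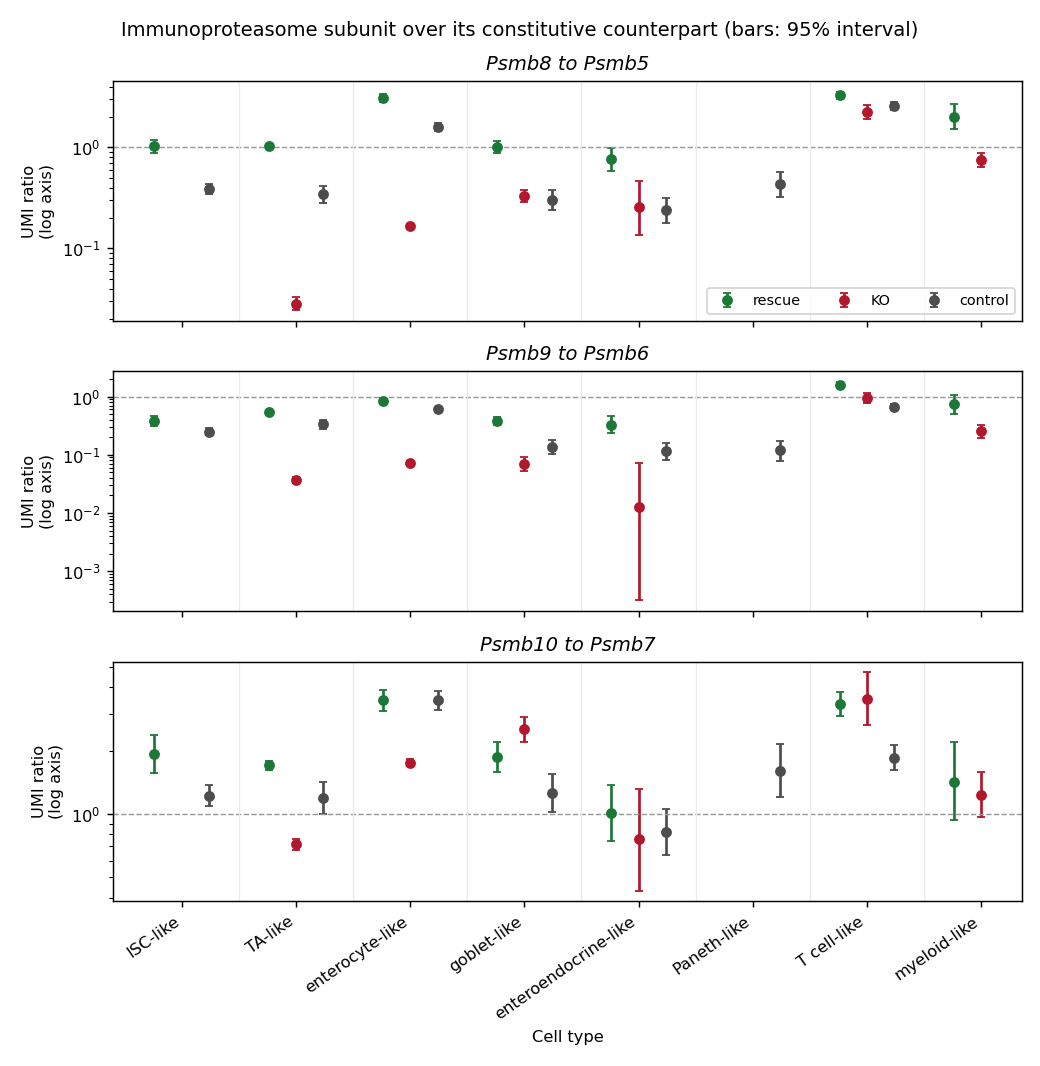
UMI ratio (log axis) of each immunoproteasome subunit to the constitutive subunit whose place it takes, by cell type, for rescue, KO and control from left to right; bars are 95% intervals from counting, and types under 20 cells in a library are left out. In TA-like cells Psmb8 to Psmb5 is 1.04 in rescue, 0.0284 in KO and 0.344 in control.

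T cell-like cells, which the Cre does not target, had several times the epithelial level of the heavy chains and narrower gaps. H2-K1 had 2532 CPM in rescue T cell-like cells, 2387 CPM in KO and 2775 CPM in control, and H2-D1 2230, 1802 and 2444 CPM. Psmb8 had 626, 504 and 298 CPM and Psmb9 208, 166 and 97.9 CPM, so here KO lay above control (1.69, 1.53 to 1.86, for Psmb8). For KO over control 0 of 10 members passed 2-fold, where 7.72% of all genes were higher and 7.28% lower, and for rescue over KO also 0 of 10, where 2.25% were higher and 5.49% lower. Psmb8 and Psmb9 were past 2-fold higher in rescue than control and 0 lower, where 4.39% of all genes were higher and 6.82% lower. The clusters differed as well, with 878 of the 931 control T cell-like cells in clusters 0 and 8, which held 1 rescue cell and 0 KO cells. Within cluster 1, with 365, 118 and 24 cells, Psmb8 was 525, 463 and 543 CPM in rescue, KO and control, and rescue over control was 0.966 (0.755 to 1.25). Epithelial markers in T cell-like cells stood at 4.37%, 7.05% and 9.23% of their epithelial level in rescue, KO and control.

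**Figure D5:**
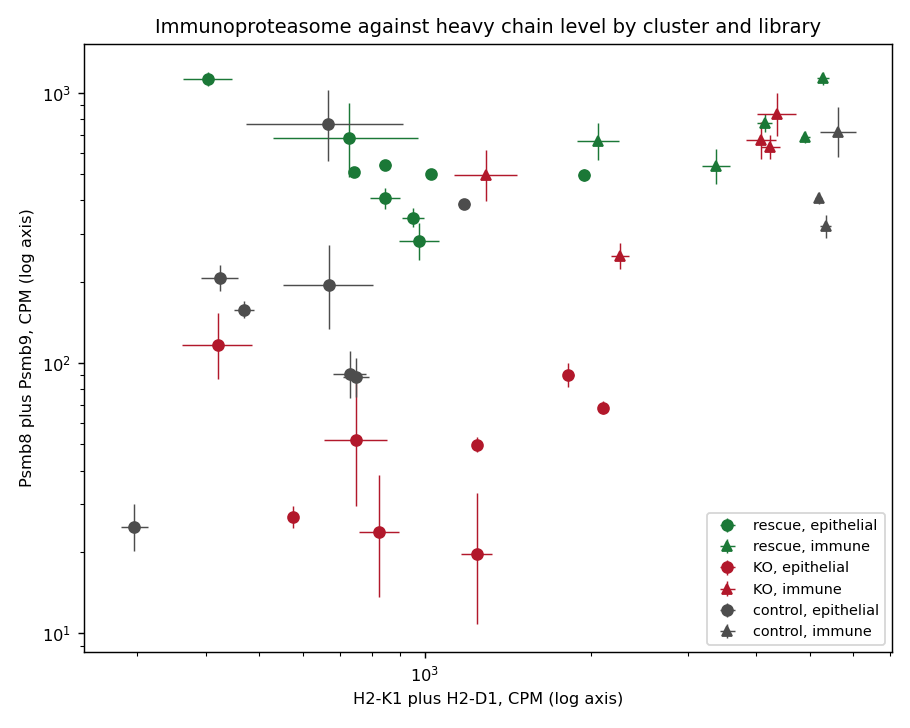
Psmb8 plus Psmb9 against H2-K1 plus H2-D1, both in CPM on log axes, for each cluster and library with at least 20 cells; circles are epithelial, triangles immune, and bars 95% Poisson intervals. The 8 KO epithelial points lie between 19.7 and 117 CPM of Psmb8 plus Psmb9 and the 9 rescue points between 283 and 1127 CPM, with heavy chains between 404 and 2108 CPM over both.

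The cluster sums set the subunits beside the heavy chains. Psmb8 plus Psmb9 ran from 283 to 1127 CPM over 9 rescue epithelial clusters and from 19.7 to 117 CPM over 8 KO epithelial clusters. Over 8 control epithelial clusters it ran from 24.8 to 769 CPM, so rescue and KO did not overlap. In rescue, KO and control H2-K1 plus H2-D1 ran from 404 to 1945, from 420 to 2108 and from 297 to 1176 CPM, and overlapped. Of the epithelial clusters only 17 and 20 held at least 20 cells of both rescue and KO. These ranges therefore mostly set unlike clusters against each other. The share of all genes that parted rescue from KO clusters in this way was not counted. Over these 25 epithelial groups of a cluster and a library, log2 levels of Psmb8 and Psmb9 had a Pearson correlation of 0.90, Psmb8 and Psmb10 0.80, Psmb8 and B2m 0.74, and H2-K1 and H2-D1 0.83. Psmb8 and H2-D1 had -0.05 and Psmb9 and H2-K1 -0.02. These are descriptions, since groups share libraries and differ in depth. Psmb8 and B2m thus had a higher correlation than Psmb8 and either heavy chain, and Tapbp had 0.75 with either heavy chain. Tap1 had 0.72 with Tap2, 0.65 with Tapbp, 0.53 with H2-D1 and 0.45 with H2-K1, against 0.37 with Psmb9 and 0.28 with Psmb8.

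Genes were ranked by how closely their log2 levels followed the members' mean. Over the 25 epithelial groups the closest of 7696 genes were Parp9, an interferon-induced gene (0.77), Cox6a1 (0.75), Cd302 (0.74), Vwa5a (0.73) and Ndufa13 (0.73). Over all 38 groups the closest of 8396 genes were Arhgap9, Traf3ip3, Def6, Hcst and Sp110, genes of white blood cells, with correlations between 0.84 (Sp110) and 0.86 (Arhgap9).

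Other genes of the same route were read from fixed lists, against 13% of all genes past 2-fold higher and 9.33% lower for rescue over KO in epithelium. Counts of 1 in a list of 8 to 12 genes are near that background. Of the 6 further loading genes, Erap1, Tapbpl and Canx were past 2-fold higher in rescue than KO epithelium and 0 lower. Erap1, the peptidase that trims peptides in the endoplasmic reticulum, had 38.8 CPM in rescue epithelium, 13.7 CPM in KO epithelium and 30.7 CPM in control epithelium. The proteasome activator subunit Psme2 had 445, 208 and 263 CPM and the assembly chaperone Psmg1 43.1, 18.3 and 31.3 CPM, the 2 of 6 in their list past 2-fold in rescue over KO. The list medians for rescue over KO were 0.90 for further loading genes and 0.83 for activator and assembly genes, against 0.19 over all genes. Of 11 other core subunits 1 was past 2-fold, Psma5 with 244, 117 and 153 CPM, and of 17 regulatory particle subunits 0 were. Of the other class I-like heavy chains, 9 of the 17 in the files reached the level read. H2-Q7, H2-Q4 and H2-T3 were past 2-fold higher in rescue than KO, with 14.7, 0.833 and 5.39 CPM in rescue, KO and control for H2-Q7. H2-Q10 was lower, with 14.5, 46.7 and 5.69 CPM, its KO level standing above both, as with H2-D1.

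The interferon gamma receptor did not follow the immunoproteasome. Ifngr1 had 100 CPM in rescue epithelium, 156 CPM in KO epithelium and 110 CPM in control epithelium, and Ifngr2 82.3, 140 and 98.9 CPM, so both were highest in KO. Of 12 interferon signalling genes 1, Socs3, a feedback inhibitor of cytokine receptors, was past 2-fold higher in rescue than KO, with 37.2, 17.6 and 30 CPM in rescue, KO and control. Of 15 interferon-induced genes 5 were past 2-fold higher and 2 lower, with Irgm1 at 17.7, 1.37 and 9.42 CPM and Ifi47 at 16.8, 1.45 and 9.92 CPM in rescue, KO and control. Irf7 (20.9, 69.3 and 31.7 CPM) and Ido1 (3.29, 33.4 and 1.21 CPM) were highest in KO. Of the promoter factors of the class I module, 1 of 8, Nfya, was past 2-fold higher in rescue than KO, with 11.4, 5.05 and 8.87 CPM. All 6 MHC class II genes at the level read were past 2-fold higher in rescue than KO, with Cd74 at 801, 12.5 and 57.2 CPM. In KO against control, 10.8% of all genes were past 2-fold higher and 13.6% lower. Of 12 interferon-induced genes 3 were higher (Oas1a, Irf7 and Ido1) and 2 lower (Rsad2 and Cxcl10), and 2 of 3 class II genes were lower. In rescue against control, 2.21% of all genes were higher and 4.95% lower. There 5 of 16 interferon-induced genes were higher and 2 lower, and 6 of 6 class II genes higher. None of the further loading, activator and assembly, constitutive, core or regulatory subunit lists had a gene past 2-fold in those 2 comparisons, save Erap1, lower in KO than control. Ifng, the gene of interferon gamma, had 47.8 CPM in rescue T cell-like cells (41.4 to 55.0), 25.4 CPM in KO T cell-like cells (16.9 to 36.7) and 26.5 CPM in control T cell-like cells (22.1 to 31.5).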

How the data were processed

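Crypts were digested with TrypLE (3x) for 1 h and 4000 to 5000 cells per library were taken, per the labels' protocols. The deposited matrices hold UMI counts per gene and barcode as the authors' Cell Ranger wrote them, version 3.0.2 for KO and control and 3.1.0 for rescue per the file headers, although the submitters' processing notes name 1.3.0. No genome build is named in those sources. Kept barcodes had 500 genes, 1000 UMIs and at most 20% mitochondrial UMIs. Doublets were scored against simulated ones (2 per cell) and 0.8% per 1000 cells removed. Clustering (Leiden, resolution 1.0, 2000 variable genes, 40 components, 15 neighbours, seed 7; leidenalg 0.10.2, scikit-learn 1.9.0, scipy 1.17.1) gave 28 clusters, with 167 genes (the lists read here, H2- and mt- genes) left out. A cluster took a class name when at least 3 markers and 20% of that class's list were 2-fold over other cells. No other class could have more markers among the cluster's 10 leading genes. A shallow or small cluster also needed a marker of the class among them. Epithelial classes needed Epcam above Ptprc, and immune classes did not have it so. This rule was set after the data were examined, and unnamed epithelial clusters stayed in the epithelial total.

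Counts were summed per library and type and given as CPM with exact Poisson intervals (95%). Ratios have exact conditional binomial intervals. The scripts were tested on simulated data. Named genes were the 10 members, Psmb5 to Psmb7, Cdc42, Yap1, Wwtr1, Ifng and its receptors, the 2 highest and 2 lowest of each other list at 10 CPM or more, and the 5 nearest in pattern. Ciita, Ptprc as a background gene, and the genes leading clusters fall outside this rule. Members and lists were chosen with earlier results of these data known. Alternatives changed cell limits, clustering, doublet removal, scaling, weights, depth, pseudocount and gating. No column of sample values was left unused.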

Additional observations from a re-analysis of the deposited data

Results flagged for a closer look

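Heavy chain and immunoproteasome genes differed in opposite directions in epithelium and in T cell-like cells of the same libraries, with both counting intervals clear of 1. The share of all genes that did the same was not counted, so this is not shown to be particular to the members. The difference between the cell types was not tested, since each genotype is 1 library. For KO over control the ratio was 0.284 for Psmb8 in epithelium and 1.69 in T cell-like cells, 0.243 and 1.70 for Psmb9, 0.892 and 1.73 for Psmb10, and 0.564 and 1.34 for Tap1. H2-K1 had 1.64 in epithelium and 0.860 in T cell-like cells, and H2-D1 2.52 and 0.737. For rescue over KO, H2-K1 had 0.734 in epithelium and 1.06 in T cell-like cells, and H2-D1 0.642 and 1.24. For rescue over control, H2-K1 had 1.20 and 0.912, and H2-D1 1.62 and 0.913. In epithelium, the KO over control sign changed for Psmb10 under stricter limits, looser limits and median-of-ratios scaling, and for Tap1 under stricter limits. The epithelial sign of H2-K1 changed with equal weight per epithelial type for rescue over KO, and with equal weight per cell for rescue over control.

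The T cell-like cells of the libraries fell in different clusters, and within cluster 1, which all 3 libraries share, KO over control was 0.852 for Psmb8 (0.651 to 1.13), 0.964 for Psmb9 (0.603 to 1.61) and 0.525 for Tap1 (0.307 to 0.931), with 24 control cells.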

How the results depend on the processing

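Under the alternatives the members' signs held in 135 of 140, 118 of 126 and 134 of 140 values in epithelium (rescue over KO, KO over control, rescue over control), in 88 of 108, 97 of 99 and 72 of 99 in enterocyte-like cells, and in 115 of 120, 115 of 120 and 120 of 120 in T cell-like cells. Psmb8 and Psmb9 kept their sign in epithelium under all 14 alternatives in each comparison. All values below are median log2 ratios over the members unless a gene is named, and the cause of each change was not tested.

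In epithelium, rescue over KO (0.96) was 0.39 under stricter limits, 0.65 with median-of-ratios scaling, 1.14 without mitochondrial and ribosomal genes in the scaling, 0.56 with cells thinned to 2000 UMIs and 0.70 with a pseudocount of 5 CPM. KO over control (-0.16) was 0.63 under stricter and 0.27 under looser limits, 0.14 with median-of-ratios scaling, -0.27 without those genes, -0.26 with equal weight per cell and -0.57 with equal weight per epithelial type. Rescue over control (0.75) was 0.94, 0.96, 0.84, 0.54 and 0.54 under stricter limits, looser limits, scaling without those genes and the equal weights per cell and per type, and 0.63 with a pseudocount of 5 CPM.

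In enterocyte-like cells, rescue over KO (1.26) was -0.87 under stricter limits (129 rescue cells), -0.93 with the lists kept in the clustering (277) and -0.20 with doublets kept (279 of 348). It was 1.07 under looser limits, 0.29 with equal weight per cell, 0.37 thinned, 1.40 without the filter on low counts and 1.48 over clusters of at least 10000 median UMIs. In the same comparison Tap1 was -1.13, -1.60 and -1.39 under the first 3 of these and -0.32 with equal weight per cell, Tap2 -0.87, -0.93 and -0.20, and B2m -0.027 with the lists kept. KO over control (-0.95) was -0.28 under looser limits, -0.71 with median-of-ratios scaling, -1.06 without mitochondrial and ribosomal genes, -1.10 with equal weight per cell or thinned cells and -0.81 without the filter. Rescue over control (0.09) was 0.47 under looser limits, -1.14 with the lists kept, -0.91 with doublets kept, 0.32 with median-of-ratios scaling, -0.37 with equal weight per cell and 0.32 over deep clusters. In T cell-like cells, rescue over KO (0.13) was 0.35 thinned and 0.35 with a marker gate. The gate on markers gave no enterocyte-like cells, and stricter limits left 13 in control, too few to compare. The limits to deep clusters and to equal weight per type were chosen after seeing the data. No paired analysis was possible because each genotype is 1 library.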
